A study of Mus musculus with 4 samples.

Results

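Sprouty proteins, Spred proteins and dual-specificity phosphatases (DUSPs) are the main negative feedback of the extracellular signal-regulated kinase (ERK) pathway. 10 of their genes, Spry1, Spry2, Spry4, Spred1, Spred2, Dusp1, Dusp4, Dusp5, Dusp6 and Dusp10, were followed across mouse hematopoietic stem cells (HSC) and multipotent progenitors (MPP). Every probe set whose platform annotation gave 1 gene symbol, and that symbol one of these, was taken. This gave 26 of the 45037 probe sets on the array that are not controls, and 10 of 18193 named genes. HSC were CD34-negative and MPP CD34-positive cells of the KSL fraction, a gate on the receptor Kit, on absent lineage markers and on a further surface antigen. Both populations came from mice of the C57BL/6 background, and the labels used here name no treatment, allele, age or sex for either group. Each group had 2 samples called biological replicates, each hybridised to 1 Affymetrix Mouse430_2 array after amplification of the RNA of 3000 cells. Whether the replicates were separate mice is not in the labels, so a p-value here reflects sample-to-sample spread that may be technical.

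When a growth factor receptor such as Kit is engaged, adaptors load RAS with GTP, RAS recruits RAF, and RAF activates MEK and then ERK. Active ERK switches on transcription of its own inhibitors. Sprouty and Spred proteins act above ERK, between the receptor and RAF, whereas DUSPs of this class remove the activating phosphates from ERK or from its relatives p38 and JNK. Because several of these genes are transcribed in response to ERK, their RNA is often read as a trace of recent pathway activity, although RNA does not measure the activity itself.

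Of the 10 genes, 1 was higher in HSC, Dusp4, and none was lower at a limma adjusted p under 0.05, when each gene was read by its brightest tested probe set. At an unadjusted p under 0.05 the counts were 2 and 0. The share of all genes at that level was not counted. These and the later unadjusted counts therefore cannot be set against a background. Across all 12382 genes tested, 13.6% were called (7.71% higher and 5.9% lower), so 1 call among 10 genes is close to the background. By probe set, 1 of the 20 that passed the filter on dim signals was called, against 10.6% of all probe sets tested (5.96% higher and 4.65% lower). The 6 left untested were 3 of Spry4 and 1 each of Spred1, Spred2 and Dusp10. The median log2 difference of the 10 genes, HSC minus MPP, was 0.30, and that of all genes tested was 0.10. The median of the 10 depended on the arrays and the scaling. With 1 array left out it ranged from 0.024 (without HSC replicate 2) to 0.48 (without MPP replicate 2). With equal array medians it was 0.064, beside -0.13 for all probe sets tested, and after quantile normalization 0.35, beside -0.01. On 4 of the 10 genes, Spry1, Spry4, Spred2 and Dusp4, both HSC arrays read above both MPP arrays, and on none were both below. Among all genes tested 58.7% were separated in this way, 35.3% upwards and 23.4% downwards. With 2 arrays against 2, an exact permutation test cannot go below p = 0.333, and the number of arrays limits the precision of every value below.

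**Figure D1:**
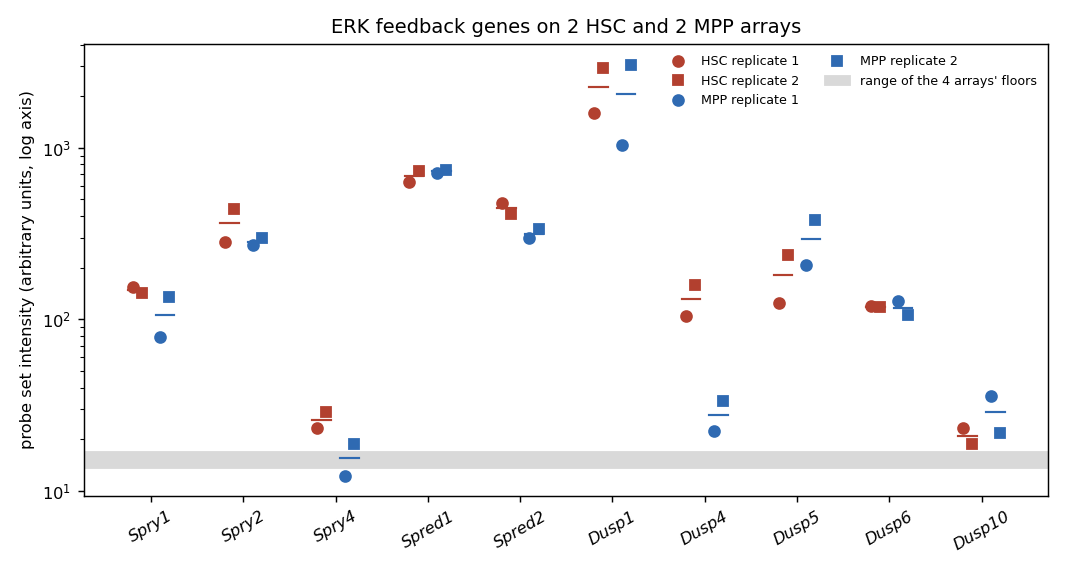
Probe set intensity (arbitrary units, log axis) of the brightest tested probe set of each of the 10 genes on the 2 HSC arrays (red) and the 2 MPP arrays (blue), with circles for replicate 1, squares for replicate 2, short lines for group means and a grey band for the range of the floors of the 4 arrays. Dusp4 read 105 and 158 units in HSC against 22.4 and 33.3 in MPP, while Dusp1 and Dusp5 were higher on the replicate 2 array of either group; levels of different probe sets are not comparable with each other.

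Signals were read against a floor, the brightest of 27 Bacillus subtilis control probe sets on the same array, which was 16.9 and 16.7 units in HSC and 14.9 and 13.6 in MPP. The sort was visible in the RNA: 6 of 7 tested HSC markers were higher in HSC, led by Mllt3 and Vwf, and the 3 MPP markers, among them Flt3 and Cd48, were lower. Kit, the receptor of the sort gate, was 1.57-fold higher in HSC (limma adjusted p = 0.0328), a call that ended when either MPP array or HSC replicate 1 was left out (limma adjusted p = 0.212, 0.181 and 0.0613) and also with equal array medians, no filter or no trend in the prior variance (0.150, 0.0850 and 0.198). Markers of mature cells were low, apart from Cd79b, at 117 to 152 units over the arrays, and Csf1r, at 282 and 552 units in MPP. Of the T cell markers, 4 of 5 were at or under the floor on all arrays, and their summed signal was 54.8 and 71.1 units in HSC and 25.0 and 49.0 in MPP. Of the 3 erythroid markers with a named probe set none was bright enough to test, and their sums were 44.7 and 38.2 units in HSC and 24.2 and 5.37 in MPP. B cell markers summed to 174 and 204 units in HSC and 149 and 205 in MPP, most of it Cd79b. Granulocyte markers summed to 109 and 34.1 units in HSC and 79.2 and 61.6 in MPP, and stroma and endothelium markers to 82.1 and 91.7 in HSC and 101 and 81.8 in MPP. None of these was called, with 0 at an unadjusted p under 0.05 except 1 T cell marker, Cd8a (limma adjusted p = 0.192). Monocyte and macrophage markers differed, at 178 and 141 units in HSC against 368 and 628 in MPP, through Csf1r, which was lower in HSC. The other 3 tested markers of that list were not called and lay above 0, with Cd14 at an unadjusted p of 0.0422 (log2 difference 1.18, limma adjusted p = 0.185). Their part in the results below was not tested. HSC replicate 2 had a 3' to 5' actin signal ratio of 9.42, against 4.99 to 5.26 on the other arrays.

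Dusp4, a nuclear phosphatase that acts on ERK, JNK and p38, was the gene that rose. Its probe set read 105 and 158 units in HSC and 22.4 and 33.3 in MPP. Both HSC values lay well above both MPP values, and all 4 values were above the floor. The mean was 131 ± 37.7 units in HSC and 27.9 ± 7.76 in MPP (SD, n = 2 each). On the log2(intensity + pseudocount) scale the difference was 2.01 (SE 0.31, 95% interval 1.31 to 2.71, limma adjusted p = 0.00255), a 4.03-fold rise, and the pseudocount makes this an understatement for a dim gene. Probe sets of that brightness had a median difference of 0.18, so the rise was far larger than the offset between the groups. The difference stayed between 1.73 and 2.29, with a call each time (adjusted p 0.000968 to 0.0081), when any of the arrays was left out. The array has 1 probe set for Dusp4 alone, so no further probe set could be set beside it. Here and below, more RNA per cell and more cells of a kind that makes it cannot be told apart in sorted bulk RNA.

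The genes whose 4-array profile was nearest to that of Dusp4 were Maff, a small MAF transcription factor, and Ell2, a transcription elongation factor. Likeness was the Euclidean distance between log2 profiles after each gene's mean over the 4 arrays was removed, and it was 0.10 for Maff and 0.13 for Ell2. Maff read 69.5 and 98.7 units in HSC and 12.2 and 18.4 in MPP, the lower of these under the floor. Ell2 read 310 and 411 units in HSC and 74.5 and 102 in MPP. In both genes, as in Dusp4, replicate 2 was the higher array of each group. Profiles over 4 arrays are a description only.

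Dusp1 and Dusp5, phosphatase genes known as rapidly induced, differed more between replicates than between groups. Dusp1, which acts on p38, JNK and ERK in the nucleus, read 1595 and 2922 units in HSC and 1040 and 3059 in MPP. The MPP values enclosed the HSC values. The difference between the groups was 0.27 on the log2 scale (SE 0.41, 95% interval -0.64 to 1.19, limma adjusted p = 0.739), and it turned to -0.16 without HSC replicate 2 and to -0.50 without MPP replicate 1. Dusp5, a nuclear phosphatase specific for ERK, read 125 and 237 units in HSC and 207 and 378 in MPP. The groups overlapped, and the difference was -0.68 (SE 0.33, 95% interval -1.41 to 0.06, limma adjusted p = 0.244). It depended on which arrays entered. It was -1.12 and called without HSC replicate 2 (limma adjusted p = 0.0229) and -1.10 without MPP replicate 1 (0.0603), but -0.23 without HSC replicate 1 (0.656) and -0.25 without MPP replicate 2 (0.819).

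In each group the replicate 2 array was the higher one for both genes. On the log2 scale, replicate 2 exceeded replicate 1 for Dusp1 by 0.87 in HSC and 1.55 in MPP, and for Dusp5 by 0.89 in HSC and 0.85 in MPP. An excess over 0.7 in both groups, a limit chosen after these values were seen, was met by 98 of 12382 genes, or 0.791%, and by these 2 of the 10 feedback genes. It was met by 8 of 16 tested immediate early genes, transcripts such as Fos that cells make within minutes of a stimulus or of handling. Over that list, 14 of 16 were higher on replicate 2 in both groups, against 23.4% of all genes, and the median excess was 0.79 in HSC and 1.08 in MPP. The summed signal of the list was 16335 and 24791 units in HSC and 12745 and 22670 in MPP, with 1 gene called higher in HSC (Egr1) and 1 lower (Hspa1b). Its part in the Dusp1 and Dusp5 values was not tested. Dusp2, a phosphatase gene outside the 10 and chosen after its values were seen, read 362 and 565 units in HSC and 270 and 533 in MPP. Of the 10 feedback genes, 6 were higher on replicate 2 in both groups (60%), among them Dusp4, and 2 were lower in both. Dusp6, by contrast with Dusp1 and Dusp5, was lower on replicate 2 by 0.02 in HSC and by 0.25 in MPP.

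**Figure D2:**
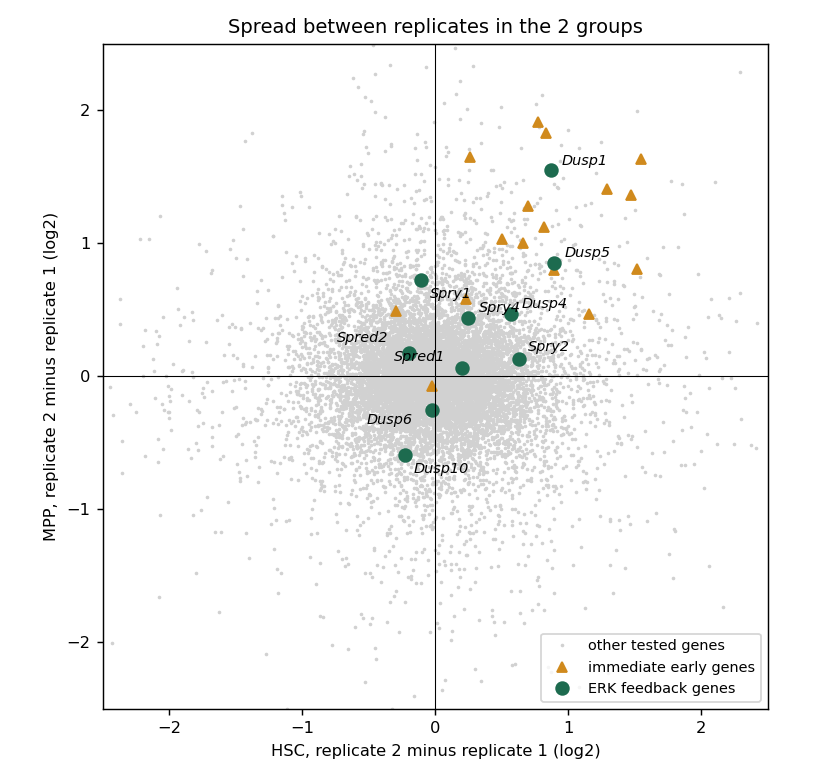
Difference between the replicates of a group (replicate 2 minus replicate 1, log2) in HSC (horizontal axis) and MPP (vertical axis) for all tested genes (grey), the 10 feedback genes (green) and the immediate early genes (orange); 19 genes lie outside the plotted range of 2.5 either way. Dusp1 (0.87 and 1.55) and Dusp5 (0.89 and 0.85) lie in the upper right with most immediate early genes, and Dusp6 and Dusp10 lie below 0 on both axes.

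The promoters of these phosphatase genes are shown because Dusp1 and Dusp5 had this spread and Dusp6 did not, a choice made after the values were seen. Each run is the 250 bases before the gene's start in RefSeq, build GRCm38.p6, 5' to 3' on the gene's strand, with matches to a motif in capitals: Dusp1 at chr17:26508473-26508722 (minus strand), Dusp5 at chr19:53528895-53529144 (plus strand) and Dusp6 at chr10:99262981-99263230 (plus strand).
Dusp1: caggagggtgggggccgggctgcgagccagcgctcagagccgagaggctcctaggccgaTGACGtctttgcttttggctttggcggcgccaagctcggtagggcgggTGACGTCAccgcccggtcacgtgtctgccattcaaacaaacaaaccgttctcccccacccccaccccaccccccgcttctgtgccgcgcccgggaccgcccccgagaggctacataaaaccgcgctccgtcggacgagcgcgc
Dusp5: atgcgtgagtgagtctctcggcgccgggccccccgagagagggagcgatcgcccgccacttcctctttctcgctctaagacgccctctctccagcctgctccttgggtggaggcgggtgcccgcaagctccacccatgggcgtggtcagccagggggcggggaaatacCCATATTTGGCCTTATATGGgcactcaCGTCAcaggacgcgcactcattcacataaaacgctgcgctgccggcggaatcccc
Dusp6: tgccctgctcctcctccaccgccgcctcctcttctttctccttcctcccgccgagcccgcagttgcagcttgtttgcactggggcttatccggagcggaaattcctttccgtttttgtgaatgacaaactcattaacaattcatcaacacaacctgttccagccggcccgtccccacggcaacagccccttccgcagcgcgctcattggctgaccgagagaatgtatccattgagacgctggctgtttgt

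Both strands were searched for 6 motifs that were then set in capitals, and the GC box GGGCGG was counted without capitals. The Dusp1 window held the full cAMP response element, TGACGTCA, the binding motif of CREB, at bases 143 to 136 before the start. That motif is present in 1.55% of 32851 such windows and in 1 of the 8 windows of the feedback genes. A second TGACG, the core contained in that element, lay at bases 191 to 187. TGACG in either orientation is present in 17.8% of windows and in 3 of the 8 of the feedback genes, Dusp1, Dusp5 and Spred2. The Dusp5 window held 2 adjoining CArG boxes, the motif of serum response factor, at bases 82 to 73 and 72 to 63. A CArG box is present in 1.47% of windows, and Dusp5 was the 1 feedback gene of 8 with one. Dusp5 also had the TGACG core, at bases 55 to 51 on the opposite strand. The Dusp6 window held no match to any of the 6, nor to the GC box. The AP-1 motif TGANTCA (6.75% of windows), the ETS motif CCGGAAG (6.91%) and the TATA motif TATAAA (12.4%) were found in 0 of the 8 windows, and GGGCGG (32.7%) in 6. The 8 windows had a GC content of 56% to 70.8%, against a median of 52.4% over all windows. The shares of all windows were not matched for GC content. Among the immediate early genes, 16 had a window, of which 1, Zfp36, held a CArG box and 1, Btg2, the full cAMP response element. Of 14 other Sprouty, Spred and DUSP genes with a window, 0 held a CArG box and 1, Dusp8, the full cAMP response element. A match describes letters in this window and shows no binding.

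Neither Dusp6 nor Dusp10 was called. Dusp6, the cytoplasmic phosphatase specific for ERK, read 120 and 118 units in HSC and 127 and 106 in MPP, so the MPP values enclosed those of HSC. Its difference was 0.03 (SE 0.23, 95% interval -0.48 to 0.54, limma adjusted p = 0.956), and turned negative after quantile normalization (-0.081) and with equal array medians (-0.20). A change of 2-fold lies outside that interval in either direction. Dusp10, which prefers p38 and JNK, was dim, at 23.1 and 18.8 units in HSC and 35.7 and 21.7 in MPP. The groups overlapped, and the difference was -0.34 (95% interval -1.24 to 0.56, limma adjusted p = 0.664), so a 2-fold fall lies inside the interval. With an array left out it ranged from -0.63 to -0.04. Its other probe set was under the floor on all arrays, between 3.13 and 6.23 units, and was not tested.

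None of the Sprouty genes was called. Spry1 read 155 and 143 units in HSC and 78.9 and 134 in MPP. The HSC values were both higher, but the upper MPP value came close to them, and the difference was 0.50 (SE 0.27, 95% interval -0.10 to 1.11, limma adjusted p = 0.292). It was 0.14 without MPP replicate 1 and 0.87 without MPP replicate 2, and 0.27 with equal array medians. Spry2 read 284 and 443 units in HSC and 270 and 296 in MPP on its brighter probe set, which overlapped, with a difference of 0.32 (SE 0.23, limma adjusted p = 0.431). That difference was 0.0048 without HSC replicate 2 and 0.64 without HSC replicate 1. It was 0.088 once the array medians were made equal. On its dim probe set the difference was 0.14 (limma adjusted p = 0.887). Spry4 was near the floor, at 23.3 and 28.7 units in HSC and 12.3 and 18.8 in MPP, where 1 of the 2 MPP arrays was under the floor. The HSC values were both higher, with a difference of 0.58 and a wide interval of -0.36 to 1.53 (limma adjusted p = 0.447). Its 3 other probe sets were too dim to test. On 2 of them HSC replicate 2 was above the floor, at 19.2 and 22.0 units, and no other array was. Sprouty proteins restrain signalling from receptor tyrosine kinases, and a change of 2-fold upwards lies outside the interval for Spry2 (-0.18 to 0.83) and inside those for Spry1 and Spry4.

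Spred1 and Spred2, membrane proteins that bring the RAS-inactivating protein neurofibromin to RAS, were read by 8 and 5 probe sets. The brightest of Spred1 read 634 and 731 units in HSC and 712 and 745 in MPP. The groups overlapped, with a difference of -0.10 (SE 0.17, 95% interval -0.46 to 0.27, limma adjusted p = 0.772). Of the 7 tested probe sets of Spred1, 4 were below 0 and 3 above, and the mean of all of them gave 0.19 in place of -0.10 (limma adjusted p = 0.575). The sign also turned without HSC replicate 1, to 0.0050. The largest departure was on a dim probe set, with 44.0 and 48.7 units in HSC and 19.9 and 23.6 in MPP. Its groups did not overlap, but the difference of 0.92 (SE 0.35) did not pass the test (limma adjusted p = 0.129). The other tested probe sets of Spred1 lay between -0.19 and 0.55. Its eighth was under the floor on both HSC arrays and on 1 MPP array, and was not tested.

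By brightest probe set, Spred2 had the smallest p-value after Dusp4, without a call. Its brightest probe set read 475 and 414 units in HSC and 297 and 336 in MPP, with both HSC values higher. The difference was 0.48 (SE 0.18, 95% interval 0.08 to 0.89), with an unadjusted p = 0.0244 and a limma adjusted p = 0.132. It was 0.25 with equal array medians and 0.20 with the mean of its tested probe sets (limma adjusted p = 0.462 and 0.650). A second probe set read 76.7 and 131 units in HSC and 61.1 and 54.6 in MPP, again with both HSC values higher. Its difference of 0.74 (limma adjusted p = 0.157) became 1.10 and was called without HSC replicate 1 (limma adjusted p = 0.0265), with HSC read from replicate 2 alone. The remaining 2 tested probe sets of Spred2 overlapped between the groups, at -0.09 and -0.33. The fifth was under the floor on all arrays.

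**Figure D3:**
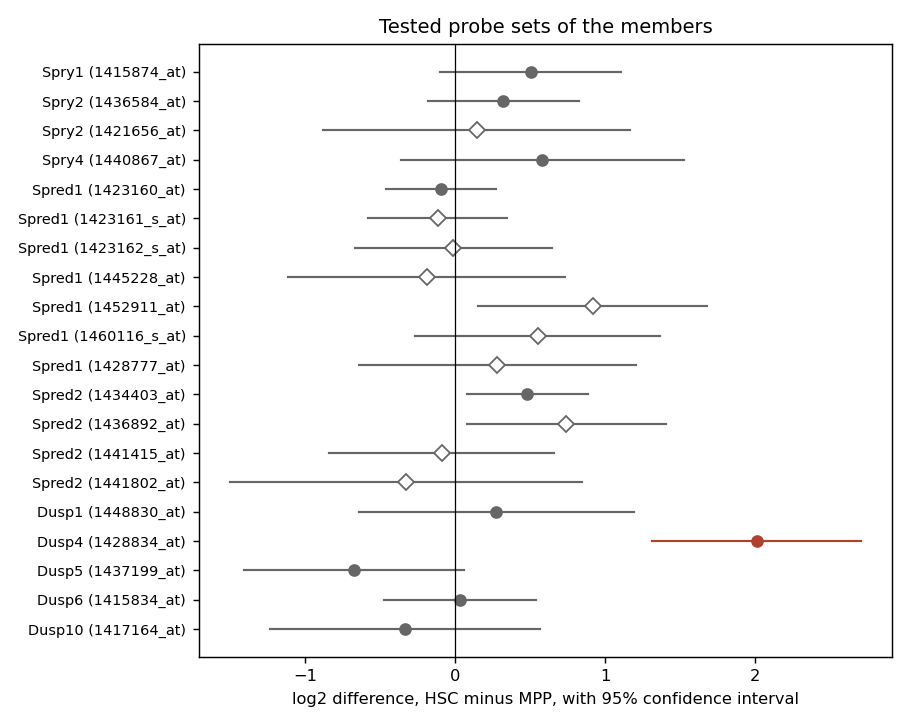
Log2 difference, HSC minus MPP, with its 95% confidence interval from limma for the 20 tested probe sets of the 10 genes; filled circles are the brightest tested probe set of a gene, open diamonds the others, and red marks an adjusted p under 0.05. The interval of Dusp4 (1.31 to 2.71) is the red one, and the probe sets of Spred1 and of Spred2 lie on both sides of 0.

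The pathway around these genes was read from 7 lists, from receptors to ERK-induced transcripts. Of 106 genes tested, 13 were higher in HSC and 5 lower, beside the 7.71% and 5.9% of all genes. The lists' median difference was 0.15, against 0.10 for all genes. The calls were spread over 6 of the lists and were most frequent among receptors. Kit, Flt3 and Csf1r, all called in the receptor list, are also among the sort and cell type markers above, so these calls are counted again here. Leaving out 1 array also changed the number of pathway genes called. Such a fit reads 1 group from a single array, and the share of all genes called changed as well. Calls lost or gained in these fits, here and below, therefore do not single out the pathway genes. Without a trend in the prior variance, where 4.94% of all genes were called, 3 were higher and 3 lower, and of the genes named below Dusp3, Dusp16, Insr, Gab1, Rras2, Etv5, Egr1 and Mapk12 lost their call (limma adjusted p from 0.0525 to 0.206). With no filter on dim probe sets Dusp16, Egr1, Egr2 and Mapk12 lost it (limma adjusted p from 0.0564 to 0.144).

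Among other Sprouty, Spred and DUSP genes, 2 of 14 tested rose and none fell (4 and 0 at an unadjusted p under 0.05), with a median of 0.28. Dusp3, a small phosphatase of ERK and JNK, read 155 and 181 units in HSC and 70.3 and 44.2 in MPP. All HSC values were higher, and the difference was 1.49 (SE 0.27, limma adjusted p = 0.00621). Of its 3 tested probe sets all were above 0 and 1 was called. Dusp16, a phosphatase of JNK and p38, read 150 and 153 units in HSC and 78.3 and 25.7 in MPP, a difference of 1.61 (SE 0.39, limma adjusted p = 0.0261). The MPP arrays lay far apart, and without MPP replicate 2 the difference was 0.90 with no call (limma adjusted p = 0.139).

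Of 13 receptors that feed RAS and ERK, 4 rose and 5 fell, with a median of 0.59. Tek, the angiopoietin receptor, rose with 174 and 210 units in HSC against 56.2 and 56.1 in MPP (log2 difference 1.67, limma adjusted p = 0.00149). Insr, the insulin receptor, was at 0.84 (limma adjusted p = 0.0158), on 1 of its 2 tested probe sets, and lost its call with either MPP array left out (0.76 without replicate 1 and 0.92 without replicate 2, limma adjusted p = 0.122 and 0.0629), after the array medians were made equal (0.61, limma adjusted p = 0.0661) and with the mean of its probe sets (0.08, limma adjusted p = 0.898). Flt3 and Csf1r, cytokine receptors of progenitors and macrophages, had the largest falls of the list, by 3.53 and 3.09 on the log2 scale. The receptors that rose numbered 2 without HSC replicate 1 and 1 without either MPP array. Those that fell numbered 5 whichever array was left out.

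Of 17 adaptors and RAS exchange factors, 1 rose and none fell (2 and 2 at an unadjusted p under 0.05 in limma), with a median of -0.06. This was the docking protein gene Gab1, at 0.78 (limma adjusted p = 0.0262), whose call ended when HSC replicate 1 or either MPP array was left out (0.66, 0.77 and 0.80, limma adjusted p = 0.0584, 0.135 and 0.129), after the array medians were made equal (0.55, limma adjusted p = 0.104) and without probe sets ending in _x_at, _s_at or _a_at (0.72, limma adjusted p = 0.0616). Without HSC replicate 1 the list had 0 calls higher and 2 lower, and with equal array medians 0 and 1. Of 13 genes of the RAS, RAF, MEK and ERK core that were tested, 2 rose and none fell (3 and 0 at an unadjusted p under 0.05), with a median of 0.37. Both were RAS relatives. Rras read 186 and 184 units in HSC and 60.3 and 57.9 in MPP, a difference of 1.55 (SE 0.23, limma adjusted p = 0.00186) that kept its call whichever array was left out. Rras2 was at 1.12 (limma adjusted p = 0.0138), and without MPP replicate 2 at 0.97 with no call (limma adjusted p = 0.0989). Its 2 tested probe sets lay on either side of 0, and their mean was 0.49 with no call (limma adjusted p = 0.184).

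The other negative regulators of RAS and ERK, such as Nf1, RASA proteins and CBL ubiquitin ligases, gave 0 calls among 19 tested in limma, and 0 at an unadjusted p under 0.05, with a median of 0.04. The smallest p-values belonged to Erf, an ETS repressor under ERK control, at 0.65, and the docking protein gene Dok3, at 0.51 (limma adjusted p = 0.325 and 0.326). Without HSC replicate 1 there was 1 call, higher in HSC.

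Of 14 ERK-induced transcripts, 3 rose and none fell (4 and 2 at an unadjusted p under 0.05 in limma), with a median of 0.36. This list is not separate from that of the immediate early genes: Egr1, Fos, Fosb, Junb, Ier2 and Ier3 are in both. Of the 14, 9 were higher on replicate 2 in both groups, with a median excess of 0.59 in HSC and 0.75 in MPP. Etv5, an ETS factor induced through ERK, read 99.1 and 158 units in HSC and 38.6 and 38.6 in MPP. The groups did not overlap, and the difference was 1.56 (SE 0.29, limma adjusted p = 0.00712), called whichever array was left out. Egr2 read 51.1 and 51.5 units in HSC and 17.1 and 12.1 in MPP, where 1 array was under the floor (1.49, limma adjusted p = 0.0275). Its call ended when either HSC array or MPP replicate 2 was left out (limma adjusted p = 0.0583, 0.0624 and 0.128). Egr1 read 4216 and 6844 units in HSC and 1386 and 3375 in MPP, with replicate 2 higher in both groups as for Dusp1. Its difference of 1.31 (limma adjusted p = 0.0372) fell to 0.67 with no call without MPP replicate 1 (limma adjusted p = 0.244), and had no call without HSC replicate 2 (0.96, limma adjusted p = 0.0681) or with equal array medians (1.08, limma adjusted p = 0.0746). Without HSC replicate 2 the list had 1 call higher and 2 lower, and without MPP replicate 1 it had 2 higher and 1 lower. Without HSC replicate 1 it had 3 higher and 1 lower, and with equal array medians 2 of each.

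The kinases p38 and JNK are the other substrates of these phosphatases. In the list of the p38 and JNK cascade, 1 of 16 genes rose and none fell (1 and 3 at an unadjusted p under 0.05 in limma), with a median of 0.20. Mapk12, a p38 kinase gene, read 81.3 and 98.0 units in HSC and 21.9 and 34.98 in MPP, a difference of 1.49 (SE 0.32, limma adjusted p = 0.0132), and at 1.22 lost its call without MPP replicate 1 (limma adjusted p = 0.0723). Without that array the list had 0 calls higher and 1 lower. It had 1 of each without either HSC array or with equal array medians.

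**Figure D4:**
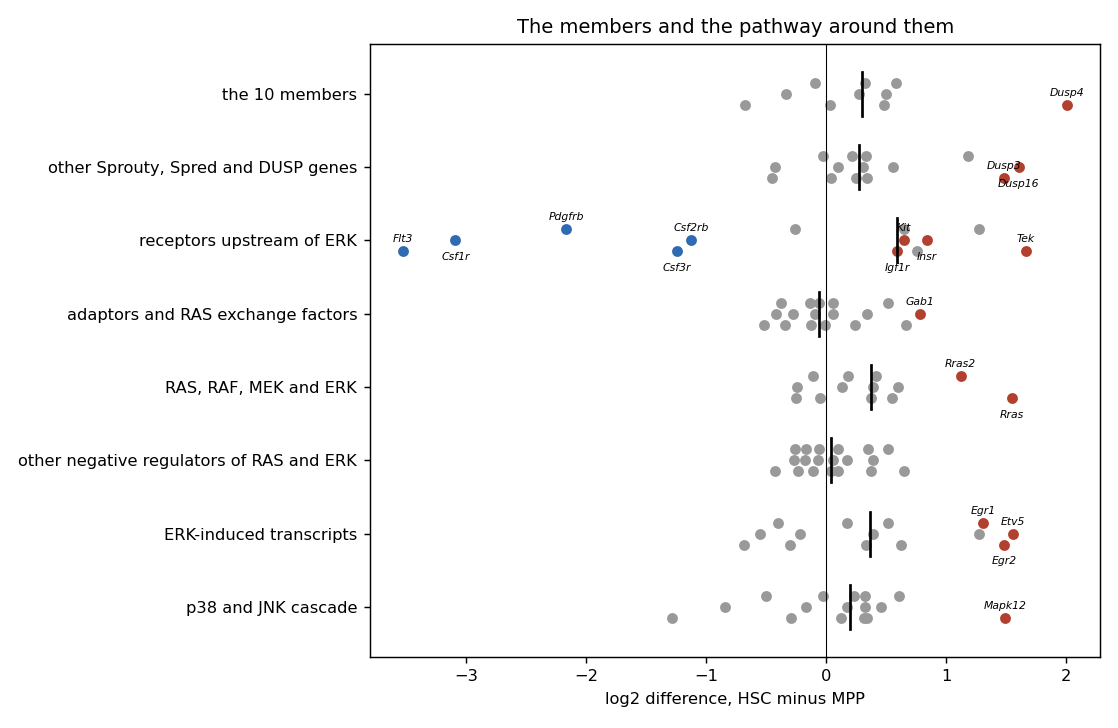
Log2 difference, HSC minus MPP, of the 10 feedback genes and of the tested genes of 7 pathway lists, with red for genes called higher in HSC, blue for genes called lower, grey for no call and a black bar for the median of each row; vertical offsets within a row only separate the points. Dusp4 at 2.01 is the rightmost point, and the 5 genes called lower are all receptors.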

How the data were processed

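The authors deposited 1 linear intensity per probe set and array, in arbitrary units, after 2-cycle amplification, per the labels' protocols. The software that summarised the probes was not given in the sources used here. On every array the mean of the values left after trimming 2% at either end was 100.0, so the arrays had been scaled to one level. Symbols were those of the platform annotation, brought up to date with RefSeq for GRCm38.p6 by gene identifier. After removal of 64 controls from 45101 probe sets, 34945 named 1 gene, 932 several and 9160 none, and RefSeq held 34741 of the first.

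Intensities were used as log2(intensity + 6.01), a pseudocount equal to 0.25 times the overall median, without further normalization, since the array medians lay within 0.27 of each other on that scale. The dimmest 40% of probe sets by mean were dropped, and 27022 probe sets of 12382 genes were tested. HSC and MPP were compared with limma 3.58.1 (R 4.3.3), lmFit and eBayes with a trend, without covariates, with 2 residual and 8.48 prior degrees of freedom. Tests were 2-sided, with Benjamini-Hochberg adjustment over the probe sets tested and a threshold of 0.05. The brightest tested probe set stood for a gene. Alternatives covered scaling, pseudocount, filter, prior, replicate block, probe set choice and each array left out. Named genes were the 10 members, up to 4 genes of each list (the 2 smallest p per direction among those called, or the 2 smallest p), and the 2 nearest profiles. Genes outside this rule are marked in the text, apart from those mentioned for what they do. The members, lists, rules and alternatives were chosen with earlier results of these data known. Promoter windows were in the RefSeq table for 8 of the 10 genes, all except Spry4 and Dusp4. Some other listed genes were not analysed here.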

Additional observations from a re-analysis of the deposited data

How the results depend on the processing

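Dusp4 kept its direction and its call under all 14 alternatives (1.57 to 2.29 on the log2 scale, adjusted p 1.99e-08 to 0.0345). Over the 10 genes, 129 of 138 recomputed differences kept their direction and side of the threshold, 2 gained a call (both Dusp5) and 7 changed sign. The sign changes were Spred1 with the mean of its probe sets (0.19) and without HSC replicate 1, Dusp1 without HSC replicate 2 and without MPP replicate 1, and Dusp6 after quantile normalization (-0.081), with equal array medians (-0.20) and without MPP replicate 2. With each array left out in turn, Spred1 ranged from -0.20 to 0.0050, Dusp1 from -0.50 to 1.05 and Dusp6 from -0.096 to 0.16. None of the values with a changed sign was called.

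The labels give same-numbered replicates no shared source, and the pairing was not assumed. Over all probe sets tested, deviations of replicate 1 from the group means correlated at 0.03 between the groups, over 2 pairs, although the immediate early genes were mostly higher on replicate 2 of both. Whether replicates 2 were prepared together was not tested. With the replicate block, 2525 probe sets were higher, against 1611, and 1833 were lower, against 1257. Of all genes, 19.6% were called, against 13.6%. Dusp5 was called lower in that setting (-0.68, adjusted p = 0.0235), which made 1 member gene and 1 member probe set lower. There 9 pathway genes were lower, 2 of them ERK-induced transcripts and 2 in the p38 and JNK cascade. Over the single arrays left out, member genes called higher stayed at 1 and those called lower ranged from 0 to 1, as did member probe sets called lower, and member probe sets called higher ranged from 1 to 2. Pathway genes ranged from 7 to 11 higher and from 5 to 9 lower, and all probe sets from 1060 to 1931 higher and from 561 to 1897 lower. With equal array medians all probe sets were 1020 higher and 2379 lower, and pathway genes 8 and 9. Without a filter they were 917 and 780, with 7 pathway genes higher. Without a trend they were 633 and 374, with 3 pathway genes higher and 3 lower. The causes were not tested. The median of all probe sets tested was 0.11 as deposited, -0.01 after quantile normalization and -0.13 with equal array medians.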
